A study of Homo sapiens with 2 samples.

Results

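FGF21, GDF15, INHBE, STC2 and ADM2 encode secreted factors whose transcripts are induced in stressed cells, and their mRNA levels were compared with and without knockdown of the RNA helicase DDX5 in the gastric cancer cell line HGC-27. The 5 genes were chosen by name as secreted targets of the integrated stress response, with their values in these libraries already known, so the values given for them are descriptions. All 5 were found by Entrez gene number among 16021 genes and gene models measured by RNA sequencing. The cells carried a lentivirus with an shRNA against DDX5 (1 library, called knockdown) or with a non-targeting shRNA (1 library, called control), and both cultures had puromycin added at 48 h and were collected 1 week later. With 1 library per condition no difference was tested, no p-value or standard error was available, and the spread between cultures was not measured. In bulk RNA, more expressing cells and more RNA per cell cannot be told apart.

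The integrated stress response starts when kinases that sense amino acid shortage, misfolded protein, double-stranded RNA or heme deficiency phosphorylate the translation initiation factor eIF2. Most protein synthesis then slows, while the mRNA of the transcription factor ATF4 is translated more, and ATF4 with its partners binds C/EBP-ATF response elements (CARE) in genes for amino acid supply, tRNA charging and the CHOP branch. Some targets are exported from the cell. FGF21 and GDF15 are known as circulating signals of cell stress that act on metabolism and food intake, activin E (from INHBE) acts on fat tissue, stanniocalcin-2 restrains insulin-like growth factor release, and ADM2 is a vasoactive peptide.

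The DDX5 transcript stood at 50.78 FPKM in the DDX5 shRNA library, against 170.5 FPKM in the non-targeting library, which is 29.8% of the control level. FPKM scales fragments to transcript length and library depth. Depth is not stated in the table, and steps between low values of short genes pointed to about 1.25e+07 to 1.75e+07 counted fragments in either library, depending on the assumed loss of length at transcript ends. Of 10 fixed markers of gastric and epithelial carcinoma cells, 6 were analysed and 2 reached 1 FPKM in each library. These 6 summed to 3.74 FPKM in knockdown and 8.6 FPKM in control cells. KRT8, an epithelial keratin, stood at 1.31 FPKM in knockdown and 5.24 FPKM in control cells, and the other 5 were at 2.27 FPKM or less in both. The 7 mesenchymal markers summed to 1759 FPKM in knockdown and 1989 FPKM in control cells, most of it VIM, a filament protein, at 1271 FPKM in knockdown and 1584 FPKM in control cells. Among them TWIST1, a transcription factor, stood at 199 FPKM in knockdown and 98.96 FPKM in control cells, and CDH2, a cadherin, was at 0.07 FPKM or less in both. The part of KRT8 and TWIST1 in the results was not tested. FGF21 and INHBE are best known from liver, and the 5 hepatocyte markers analysed, of 10 fixed, summed to 1.65 FPKM in the DDX5 shRNA library and 1.23 FPKM in the non-targeting library. The immune markers summed to 2.06 FPKM in knockdown and 1.98 FPKM in control cells. The endothelial markers summed to 0.05 FPKM in knockdown and 0.02 FPKM in control cells. PTPRC, PECAM1 and ALB, which define those other cell types, were not analysed here.

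All 5 hormone transcripts stood higher in the DDX5 shRNA library, by 2.93-fold to 174-fold on the deposited FPKM. FGF21, an endocrine fibroblast growth factor, stood at 59.26 FPKM in the DDX5 shRNA library, against 0.34 FPKM in the non-targeting library. It was close to silent in the control cells and among the more abundant mRNAs after DDX5 knockdown, where it stood above 91.7% of listed genes, against 23.0% in control cells. GDF15, a distant member of the TGF-beta family, stood at 58.97 FPKM in knockdown cells and at 1 FPKM in control cells, a 59.0-fold difference. INHBE, which encodes the inhibin beta E subunit that dimerises to activin E, stood at 45.89 FPKM in knockdown cells and at 3.3 FPKM in control cells, a 13.9-fold difference. These 3 genes had low control levels and ranked 1, 2 and 7 by ratio among 11413 genes at a mean of 1 FPKM or more. ADM2, also called intermedin, stood at 28.62 FPKM in knockdown cells and at 4.55 FPKM in control cells, a 6.29-fold difference at rank 27. STC2, the glycoprotein stanniocalcin-2, stood at 41.94 FPKM in knockdown cells and at 14.3 FPKM in control cells, a 2.93-fold difference at rank 155. STC2 was thus the member with an appreciable level already in control cells and the smallest ratio.

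**Figure D1:**
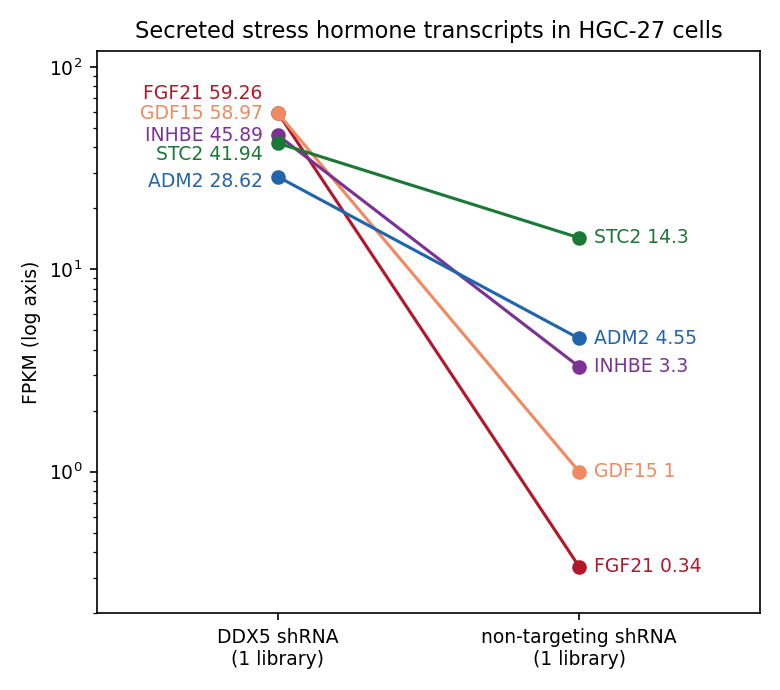
FPKM (log axis) of the 5 hormone transcripts in the DDX5 shRNA library and the non-targeting library, 1 point per gene and library joined by a line. The levels lie between 28.62 and 59.26 FPKM in knockdown cells and between 0.34 and 14.3 FPKM in control cells.

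On the log2 scale of FPKM + 1, which dampens the ratios of weakly expressed genes, FGF21 had a ratio of 5.49, GDF15 4.91, INHBE 3.45, ADM2 2.42 and STC2 1.49, and every later log2 ratio is on this scale, DDX5 shRNA over non-targeting shRNA. All 5 passed 2-fold upwards (a log2 ratio of 1 or more), as did 4.19% of the 11413 genes, while 2.26% passed it downwards and 6.45% in either direction. At the same total FPKM in both libraries, which shifted all genes by -0.11, 3.28% passed upwards and 3.28% downwards, and the excess of higher genes (478 against 258) was gone at 374 in each direction. The members' values were known when they were chosen, so their count is a description. The pseudocount sets the size for the weakest genes: from a pseudocount of 5 to one of 0.1, the FGF21 ratio spanned 3.59 to 7.08, that of GDF15 3.41 to 5.75 and that of INHBE 2.62 to 3.76. The number of fragments behind the control values was small. FGF21 in the non-targeting library came to about 4 to 6 fragments, against about 643 to 1066 with DDX5 shRNA, over 12 combinations of coding transcript, loss of length and the depth fitted with it. Over these, exact 95% intervals (Clopper-Pearson, counting error only) of its fold reached from 64.5 to 639. GDF15 came to about 637 to 958 fragments with DDX5 shRNA and about 11 to 17 with the non-targeting shRNA, with intervals of its fold from 32.6 to 124. Those of INHBE (10.2 to 19.4), ADM2 (5.50 to 7.24) and STC2 (2.72 to 3.16) did not overlap each other or those of FGF21 and GDF15, while the intervals of FGF21 and GDF15 overlapped. These intervals rest on an estimated depth and on annotated lengths.

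The order of levels was close to inverted between the libraries. With DDX5 shRNA it ran FGF21, GDF15, INHBE, STC2 and ADM2 from high to low, with FGF21 and GDF15 only 0.29 FPKM apart. With the non-targeting shRNA it ran STC2, ADM2, INHBE, GDF15 and FGF21. The highest level was 2.07 times the lowest in the DDX5 shRNA library and 42.1 times the lowest in the non-targeting library. Summed over the 5 genes, FPKM was 235 with DDX5 shRNA and 23.5 with the non-targeting shRNA. FGF21 and GDF15 together made up 50.4% of that sum with DDX5 shRNA and 5.71% with the non-targeting shRNA, while STC2 made up 17.9% with DDX5 shRNA and 60.9% with the non-targeting shRNA. A ratio is tied to its own denominator, so the order of ratios following the inverse order of control levels is a description of these 5 values.

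**Figure D2:**
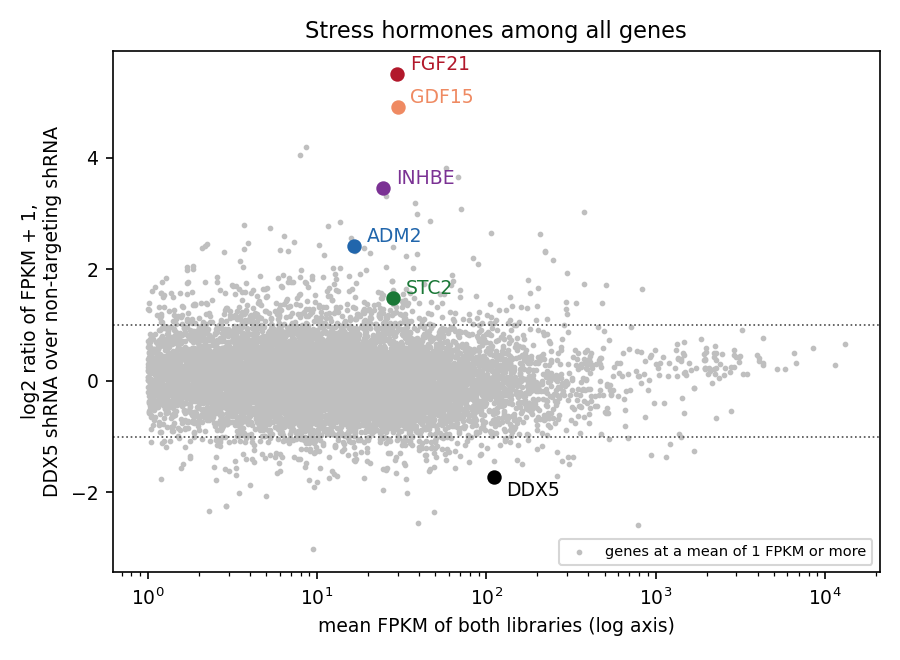
Log2 ratio of FPKM + 1 against mean FPKM (log axis) for the 11413 genes at a mean of 1 FPKM or more, with the 5 hormone genes and DDX5 marked and dotted lines at 2-fold. FGF21 (5.49) and GDF15 (4.91) lie above every other gene, and INHBE (3.45), ADM2 (2.42) and STC2 (1.49) lie above the upper dotted line.

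Upstream sequence was examined because the 5 genes were grouped as targets of one response. RefSeq promoter windows (GRCh38.p14) were matched for 4 members and INHBE was not. The CARE motif was searched as TGATGNAA on both strands, from 250 bases before to 50 bases after the transcript start. It occurred in the FGF21 window alone among the 4, on the antisense strand. The sense strand there reads ttgcatca, from 54 bases before the start. Of 35116 promoter windows 3.62% held the motif, as did 2.66% of 9279 filtered genes with a window. GDF15 held a TATA box (TATAAA) 29 bases before its start, a motif in 11.5% of all windows. The 250 bases before each start are shown for FGF21 (chr19:48755274-48755523, plus strand), where capitals mark the CARE match, and for GDF15 (chr19:18385908-18386157, plus strand), where capitals mark the TATA box.
FGF21: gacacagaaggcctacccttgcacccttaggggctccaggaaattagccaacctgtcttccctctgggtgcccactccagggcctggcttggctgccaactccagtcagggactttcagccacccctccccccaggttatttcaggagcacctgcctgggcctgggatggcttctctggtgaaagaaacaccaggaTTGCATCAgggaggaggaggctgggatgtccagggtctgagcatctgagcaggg
GDF15: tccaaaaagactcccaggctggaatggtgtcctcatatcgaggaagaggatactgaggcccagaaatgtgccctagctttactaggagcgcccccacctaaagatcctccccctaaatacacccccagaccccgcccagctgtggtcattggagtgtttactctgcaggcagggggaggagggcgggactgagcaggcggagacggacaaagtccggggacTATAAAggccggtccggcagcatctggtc
The STC2 and ADM2 windows held neither motif, which says only that these letters are not in those windows. The ADM2 upstream sequence was the richest in G and C, at 78.8%, against 63.6% for STC2, 60.0% for FGF21 and 58.4% for GDF15. Other motifs searched in the 4 members' windows included CRE (TGACGTCA), its nested shorter form TGACG, ERSE by name, UPRE (TGACGTGG, which also contains TGACG), AP-1 (TGANTCA) and the E-box CACGTG. None of these was found in the 4 windows, and they occurred in 1.85%, 24.6%, 0.0769%, 0.729%, 7.71% and 7.26% of all windows, in that order.

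Among fixed intracellular ATF4 targets, 12 of 32 genes with a window held a CARE match in at least 1 of their windows (genes with several annotated starts have several windows). The FGF21 match and the matches upstream of ASNS (asparagine synthetase, chr7:97872461-97872484, minus strand), CHAC1 (a glutathione-degrading enzyme, chr15:40953254-40953277, plus strand) and SLC1A5 (a glutamine transporter, chr19:46784896-46784919, minus strand) are set side by side below with 8 bases on each side, the match in capitals and each written in the direction of its gene. They show how the element of the hormone gene compares with those of metabolic genes, and were chosen after the matches were seen.
FGF21: caccaggaTTGCATCAgggaggag
CHAC1: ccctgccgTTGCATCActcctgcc
ASNS: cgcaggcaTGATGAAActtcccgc
SLC1A5: gaagtggcTGATGCAAgctgtcca
The FGF21 and CHAC1 matches run antisense to their genes, and those of ASNS and SLC1A5 run in the direction of the gene. CHAC1 stood at 69.5 FPKM in knockdown cells and 6.76 FPKM in control cells, ASNS at 373.41 FPKM in knockdown and 73.39 FPKM in control cells, and SLC1A5 at 168.86 FPKM in knockdown and 69.49 FPKM in control cells. Of the 12 targets with a match, MARS1, SLC7A1, JDP2 and NARS1 had log2 ratios of 0.90, 0.80, 0.52 and 0.23, and the rest passed 2-fold upwards. CTH (2.99) and DDIT3 (2.86) had no match in their windows. A link between a match and a ratio was not tested.

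**Figure D3:**
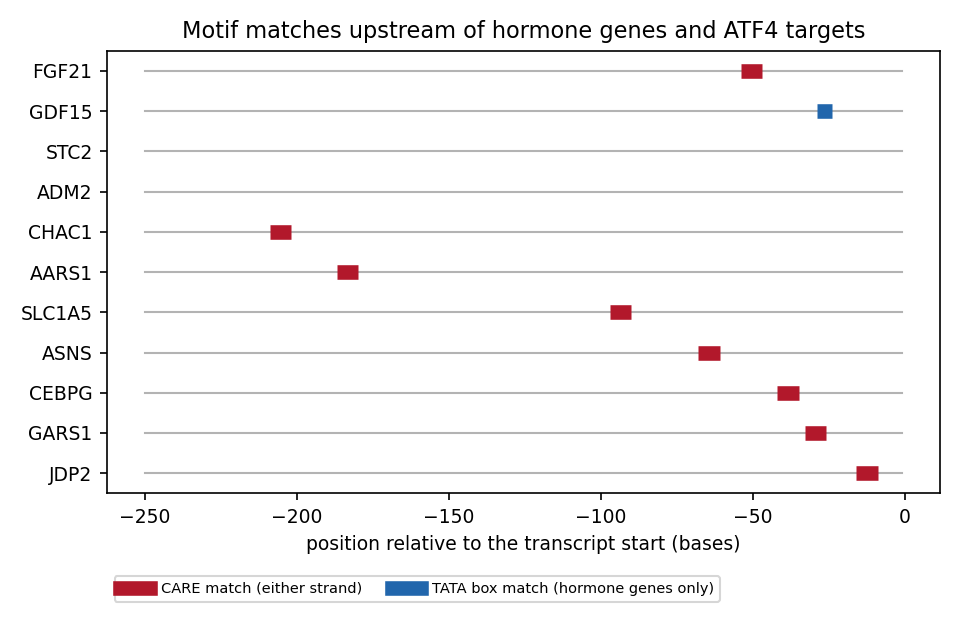
Positions of CARE matches (red, either strand) and TATA box matches (blue, hormone genes only) in the 250 bases before the transcript start, for the 4 hormone genes with a window and for ATF4 targets with a CARE match there. FGF21 has a match 54 bases before the start, within the range of the 7 ATF4 targets, and GDF15, STC2 and ADM2 have none.

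The hormones were then set beside genes of the same response that act inside the cell. Of 38 fixed intracellular ATF4 targets, 36 passed the filter at a mean of 1 FPKM. In the knockdown library 26 of them stood 2-fold or more above control (4.19% of all genes did) and 0 below it by as much (2.26%). Their median log2 ratio was 1.40 (median of all genes 0.02). At the same total FPKM 23 passed 2-fold upwards (3.28% of all genes did). The list was drawn up with earlier results of these data known. FGF21 and GDF15 had larger ratios than all 36, INHBE than 35, ADM2 than 29 and STC2 than 19. The largest intracellular ratio was that of TRIB3, a pseudokinase that feeds back on ATF4 and CHOP, at 126.35 FPKM in knockdown cells and 9.18 FPKM in control cells. The levels differed as well: the 36 genes had a median of 121 FPKM in knockdown cells and 58.7 FPKM in control cells, and the lowest control level among them, 3.88 FPKM, was above those of FGF21, GDF15 and INHBE. In control cells those 3 hormone transcripts thus stood below every one of the 36 intracellular targets, and in knockdown cells FGF21 stood above 11 of them. GARS1 and CEBPG, a glycyl-tRNA synthetase and an ATF4 partner, lay nearest the list median at 1.40 each, close to STC2 at 1.49.

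Transcription factors known to act at these promoters came next, in a list that also holds TRIB3, a pseudokinase and not a transcription factor. TRIB3 is in the counts and the median of the whole list. Of 20 fixed genes 17 passed the filter, 8 stood 2-fold or more above control (4.19% of all genes did) and 0 below it by as much, with a median of 0.96. TRIB3, DDIT3, NUPR1, ATF5 and CEBPG, 5 of the 8, are also on the ATF4 target list, and of the 12 genes not on it 3 passed 2-fold upwards, with a median of 0.43. DDIT3, which encodes CHOP, stood at 82.1 FPKM in knockdown cells and 10.44 FPKM in control cells. NUPR1, a stress-induced chromatin cofactor, stood at 359.58 FPKM in knockdown and 57.29 FPKM in control cells. CEBPB, a bZIP partner of ATF4, stood at 59.65 FPKM in knockdown and 13.9 FPKM in control cells. ATF3, ATF5 and XBP1 had log2 ratios of 1.73, 1.53 and 1.50. ATF4 itself, regulated largely through translation, was just under 2-fold, at 601.83 FPKM in knockdown and 309.42 FPKM in control cells, a log2 ratio of 0.96, and the ER stress sensor ATF6 had 0.67. Regulators outside the stress response that are known at single members were named after their values were seen. EGR1, an activator of GDF15, stood at 0.36 FPKM in knockdown and 1.47 FPKM in control cells. PPARA, the fasting regulator of FGF21 in liver, stood at 2.13 FPKM in knockdown and 1.56 FPKM in control cells. Neither gene stood above control by 2-fold on FPKM + 1.

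**Figure D4:**
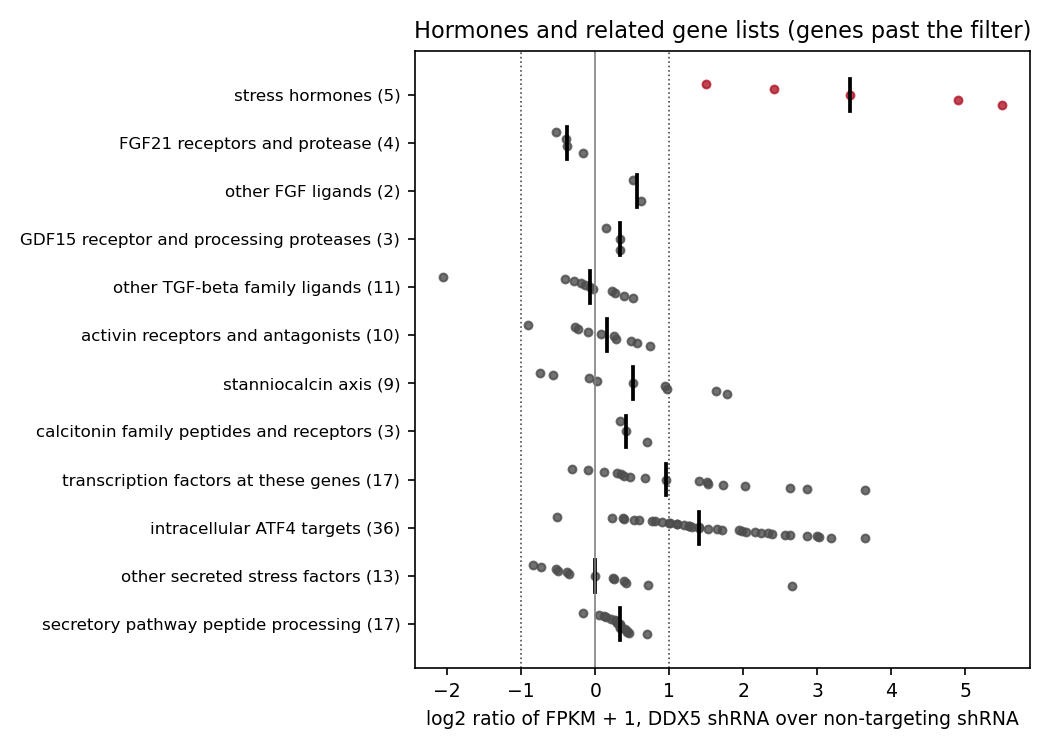
Log2 ratios of FPKM + 1 for the 5 hormones (red) and 11 related gene lists (grey), 1 point per gene past the filter, with some genes on more than 1 list, with the number of genes in brackets, a bar at the median and dotted lines at 2-fold. Among the other lists, the transcription factors and the intracellular ATF4 targets have the highest medians, 0.96 and 1.40, and the hormones have 3.45. The transcription factor list includes TRIB3, a pseudokinase, and shares 5 genes with the ATF4 targets.

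Relatives of the hormones in the same protein families were next considered, since FPKM is per length and levels can be compared between genes. Of the other FGF ligands, 9 of 21 were analysed, and the highest in the DDX5 shRNA library was FGF11, an intracellular FGF, at 2.82 FPKM, against 1.5 FPKM in the non-targeting library. FGF21 was 1 of 10 in level with DDX5 shRNA and 5 of 10 with the non-targeting shRNA. FGF19, an endocrine relative of FGF21 from the gut, stood at 0.14 FPKM in knockdown cells and was listed at 0 with the non-targeting shRNA, and FGF23 was not analysed here. Among TGF-beta family ligands, 24 others were analysed and 10 passed the filter. Of these, 0 stood above control by 2-fold and 1 below it (4.19% and 2.26% of all genes did), with a median of -0.10. BMP1, a metalloprotease on the original list, is left out of these counts, and with it 11 passed and the median was -0.07. The lower gene was BMP4, a bone morphogenetic protein, at 1.31 FPKM in knockdown cells and 8.63 FPKM in control cells. GDF15 and INHBE were 2 and 3 of 26 in level with DDX5 shRNA, and 12 and 7 of 26 with the non-targeting shRNA. Other inhibin subunits were weak. INHBA was listed at 0 FPKM in knockdown and 0.03 FPKM in control cells. INHBB stood at 0.97 FPKM in knockdown and 1.25 FPKM in control cells. INHA, the alpha subunit, stood at 0.84 FPKM in knockdown and 0.05 FPKM in control cells, and INHBC stood at 1.46 FPKM in knockdown and 0.21 FPKM in control cells. INHBE was the inhibin subunit with the highest level in both libraries. INHA and INHBC, the latter like INHBE a liver activin subunit, were below the filter. They were 16.8-fold and 6.95-fold apart on the deposited FPKM, from control levels of 0.05 and 0.21 FPKM.

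INHBC is also the neighbour of INHBE on chromosome 12, and the genes beside each hormone were looked up in the RefSeq gene order. Around INHBE 4 genes on each side were taken, a stretch set to reach DDIT3 after its value was seen. Beyond INHBC, R3HDM2 stood at 13.04 FPKM in knockdown and 7.44 FPKM in control cells, STAC3 at 0.61 FPKM in knockdown and 1.02 FPKM in control cells, and COXFA4L2 at 18.82 FPKM in knockdown and 3.15 FPKM in control cells. On the other side are GLI1, ARHGAP9, MARS1 and DDIT3, in that order. GLI1, a Hedgehog pathway factor, stood at 8.24 FPKM in knockdown and 3.68 FPKM in control cells. ARHGAP9 stood at 0.29 FPKM in knockdown and 0.03 FPKM in control cells. MARS1, the methionyl-tRNA synthetase, stood at 121.44 FPKM in knockdown and 64.54 FPKM in control cells. MARS1 and DDIT3 also belong to the ATF4 target list, and COXFA4L2 does not. The neighbours of INHBE past the filter all stood higher in knockdown cells. R3HDM2, COXFA4L2, GLI1, MARS1 and DDIT3 had log2 ratios of 0.73, 2.26, 0.98, 0.90 and 2.86. INHBC, STAC3 and ARHGAP9 were below the filter, and of these only STAC3 stood lower in knockdown cells. The part of gene position in these values was not tested. Next to FGF21, the branched-chain aminotransferase gene BCAT2 stood at 30.8 FPKM in knockdown and 27.77 FPKM in control cells. FUT1, a fucosyltransferase gene on the other side, stood at 1.56 FPKM in knockdown and 0.13 FPKM in control cells, and HSD17B14, beyond BCAT2, at 20.59 FPKM in knockdown and 4.33 FPKM in control cells. FGF21 thus had neighbours close to and far from their control level. IZUMO1, beyond FUT1, was at 0.05 FPKM or less in both libraries. PGPEP1 and LRRC25, beside GDF15, were both under 1 FPKM in both libraries. Beyond them LSM4 had a log2 ratio of 0.56 and SSBP4 one of -0.39. SBF1, beside ADM2, stood at 13.5 FPKM in knockdown and 13.1 FPKM in control cells, and MIOX, on its other side, at 0.63 FPKM in knockdown and 0.05 FPKM in control cells. Beside STC2, NKX2-5 stood at 10.18 FPKM in knockdown and 16.35 FPKM in control cells and BOD1 at 72.49 FPKM in knockdown and 51.16 FPKM in control cells. The second neighbours of STC2, BNIP1 and CPEB4, had log2 ratios of 0.36 and 0.48, and those of ADM2, PPP6R2 and LMF2, had -0.22 and -0.23. No exon of the 5 genes overlapped an exon of another gene in GENCODE v29. Of 50-base windows along their coding transcripts, 0 were shared with another gene for FGF21, GDF15, INHBE and STC2, and 2 of 472 for ADM2.

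Receptors were considered because they bear on whether a cell can respond to the hormone it makes, and several were near 0 in both libraries. KLB, the beta-Klotho co-receptor that FGF21 needs, stood at 0.01 FPKM in knockdown cells and 0.03 FPKM in control cells. FGFR1, its main receptor in fat tissue, stood at 0.16 FPKM in knockdown and 0.07 FPKM in control cells, while FGFR4, the main FGF receptor of liver, stood at 16.14 FPKM in knockdown and 23.7 FPKM in control cells. FGFR3 stood at 19.14 FPKM in knockdown and 25.16 FPKM in control cells and FGFR2 at 8 FPKM in knockdown and 9.13 FPKM in control cells. The cells thus had FGF receptor transcripts but almost none of the co-receptor. FAP, a protease that cleaves FGF21, stood at 4.32 FPKM in knockdown and 6.03 FPKM in control cells. GFRAL, the brainstem receptor of GDF15, was not analysed here, and its signalling partner RET stood at 0.02 FPKM in knockdown and 0.01 FPKM in control cells. ACVR1C (ALK7), through which activin E is thought to act on fat cells, stood at 0.02 FPKM in knockdown and 0.05 FPKM in control cells, whereas the type II receptor ACVR2A stood at 1.48 FPKM in knockdown and 1.35 FPKM in control cells and its relative ACVR2B at 0.76 FPKM in knockdown and 0.9 FPKM in control cells. CALCRL, the receptor of ADM2, stood at 0.87 FPKM in knockdown and 0.77 FPKM in control cells, and its RAMP partners were not analysed here. Of the 10 activin receptor, SMAD and antagonist genes past the filter, 0 were 2-fold apart. FSTL3, an activin-binding protein, stood at 10.43 FPKM in knockdown and 20.42 FPKM in control cells and was the 1 gene of them past 2-fold, downwards, at the same total FPKM.

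**Figure D5:**
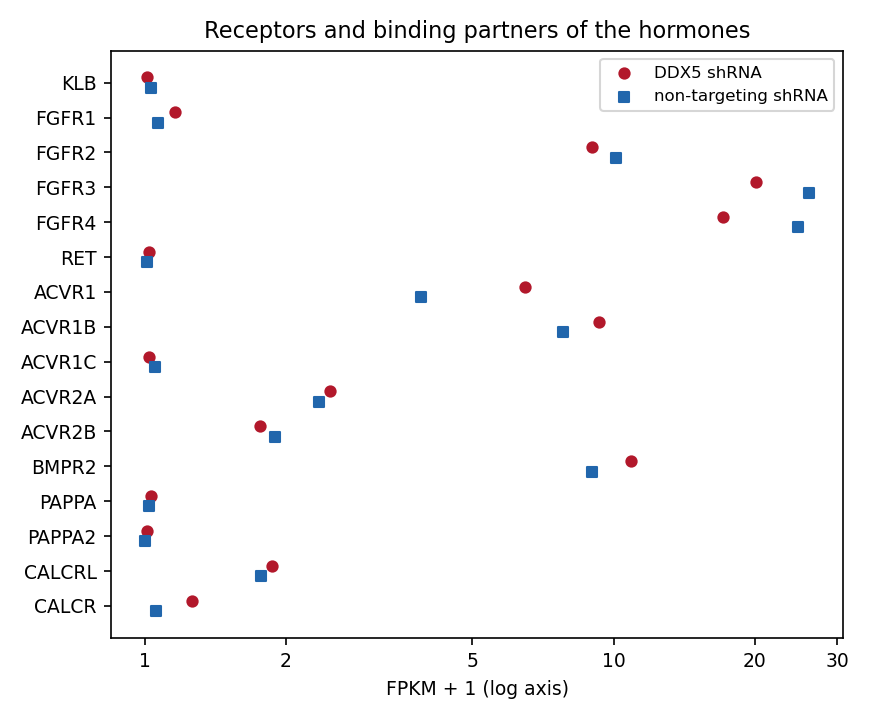
FPKM + 1 (log axis) of receptors and binding partners of the 5 hormones in the DDX5 shRNA library (red circles) and the non-targeting library (blue squares), 1 point per gene and library. KLB, RET, ACVR1C, PAPPA and PAPPA2 lie at or near 1, the value of a gene at 0 FPKM, in both libraries, and FGFR2, FGFR3 and FGFR4 are the highest FGF receptors.

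Partners of STC2 lie in the insulin-like growth factor system, where stanniocalcins block the protease PAPP-A from cleaving IGF-binding proteins. STC1, the paralog of STC2, stood at 2.58 FPKM in knockdown cells and 0.83 FPKM in control cells. On the deposited FPKM this is a 3.11-fold difference, beside 2.93-fold for STC2. On FPKM + 1 the log2 ratios were 0.97 for STC1 and 1.49 for STC2. PAPPA stood at 0.03 FPKM in knockdown and 0.02 FPKM in control cells and PAPPA2 at 0.01 FPKM in knockdown and 0 FPKM in control cells, and these target proteases were thus near 0 in both libraries. IGFBP5, a substrate of these proteases, stood at 98.49 FPKM in knockdown and 27.92 FPKM in control cells. IGFBP4, a substrate of PAPP-A, stood at 237.74 FPKM in knockdown and 123.91 FPKM in control cells. IGFBP3, a carrier of growth factor in serum, stood at 105.54 FPKM in knockdown and 33.44 FPKM in control cells. The substrates were thus abundant in both libraries. On FPKM + 1, IGFBP5 and IGFBP3 were the 2 of 9 filtered genes of this list above control by 2-fold (4.19% of all genes were). By as much, 0 were below it (2.26% of all genes were). STC1 fell just short, and with a pseudocount of 0.1 the count above control was 3. The median was 0.50, with IGF2R nearest at 11.89 FPKM in knockdown and 8.09 FPKM in control cells.

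ADM2 belongs to the calcitonin peptide family. Its closest relative ADM, adrenomedullin, stood at 8.61 FPKM in knockdown cells and 6.22 FPKM in control cells, a log2 ratio of 0.41, so ADM2 stood above ADM with DDX5 shRNA and below it with the non-targeting shRNA. Of 3 filtered genes of that list, 0 were 2-fold apart. PAM, which amidates the ends of such peptides, stood at 65.91 FPKM in knockdown and 52.32 FPKM in control cells. Among 17 filtered genes for signal peptide removal, translocation and propeptide cleavage, 0 were 2-fold apart and the median was 0.33 (0.21 at the same total FPKM). FURIN, a convertase of TGF-beta family precursors, stood at 6.35 FPKM in knockdown and 4.83 FPKM in control cells, and its relative PCSK6 at 10.93 FPKM in knockdown and 8.46 FPKM in control cells. None of the 17 thus came near the ratio of any hormone, the highest being CPE, a peptide-trimming carboxypeptidase, at 0.70.

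Other secreted stress factors showed no shared direction. Of 31 fixed genes 13 passed the filter, with 6 above 0, 6 below 0 and a median of 0.00. Of these 13, 1 passed 2-fold upwards (7.69%, beside 4.19% of all genes) and 0 downwards (2.26% of all genes). The higher gene was VEGFA, the angiogenic factor and a known ATF4 target, at 185.27 FPKM in knockdown cells and 28.65 FPKM in control cells. Of the 6 below 0, TNFRSF12A (-0.53) is a membrane receptor and SDF2L1 is retained in the endoplasmic reticulum. The counts and median of this list are thus not of secreted factors alone. HBEGF, a ligand of the EGF receptor, was at 2.77 FPKM in both, and METRNL stood at 28.69 FPKM in knockdown and 24.1 FPKM in control cells. Of the list's products of the unfolded protein response in the endoplasmic reticulum, named after their values were seen, MANF, CRELD2 and SDF2L1 had log2 ratios of -0.35, -0.50 and -0.84, and CDNF, a relative of MANF below the filter, 0.45. Chaperone and folding genes of the endoplasmic reticulum are on none of the fixed lists and were also named after their values were seen. HSPA5, which encodes BiP, HYOU1 and P4HB had 0.29, 0.19 and 0.13. HSP90B1, PDIA4, PDIA6, DNAJB11 and CALR had -0.681, -0.674, -0.445, -0.213 and -0.181. These secreted, chaperone and folding genes thus had no shared direction, and none of them was 2-fold apart on FPKM + 1. That statement leaves out XBP1, ATF6 and DDIT3, given above with the transcription factors, which had 1.50, 0.67 and 2.86. The part of the unfolded protein response in the results was not tested.

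By ratio alone, the genes most like each hormone were sought among 8544 others at a mean of 5 FPKM or more, with the absolute difference of log2 ratios over the 2 libraries as the measure. FGF21 and GDF15 were each other's nearest, 0.58 apart, and SERF1A was next to both, 1.30 from FGF21 and 0.71 from GDF15. SERF1A stood at 17.32 FPKM in knockdown cells and was listed at 0 in control cells, so its ratio rests on the pseudocount. INHBE was nearest to AKNA (47.35 FPKM in knockdown cells and 3.89 FPKM in control cells), 0.14 apart, and to TRIB3, 0.20 apart. ADM2 was nearest to XPNPEP2 (17.91 FPKM in knockdown and 2.5 FPKM in control cells) and to P4HA2, a collagen prolyl hydroxylase (48.05 FPKM in knockdown and 8.36 FPKM in control cells), and STC2 to WASHC3 (35.53 FPKM in knockdown and 12.03 FPKM in control cells) and CTBS (11.65 FPKM in knockdown and 3.52 FPKM in control cells). With 2 libraries such likeness is a single number per gene, and many genes share a ratio near that of STC2.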

How the data were processed

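Illumina libraries were made from Trizol-extracted RNA, 1 for each condition. FPKM values (fragments scaled to transcript length and depth), as deposited by the authors with 2 decimals, were used for all results. Per the submitters' processing notes, Bowtie2, HISAT and RSEM 1.2.8 were among the tools and hg19 was the build. The annotation, any filter and the strand setting were not given in the sources used here.

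Columns were assigned by sample title. Of 16021 rows, 15289 matched a RefSeq symbol (GRCh38.p14) by Entrez number. Log2 ratios used FPKM + 1, and counts used genes at a mean of 1 FPKM or more. No test was possible with 1 library in each group. The members, gene lists, motifs and alternatives were chosen with earlier results of these data known. Genes were named if they were members, 2-fold apart in a list, nearest a list median, receptors or close relatives, or nearest a member in ratio. Others are marked or serve as neighbours or markers.

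Promoter windows came from RefSeq (GRCh38.p14), and transcript lengths, exons and shared 50-base windows from GENCODE v29, used for no hg19 coordinate. Depth was estimated from FPKM times length of short genes with 1 transcript. At the best step 59.7% to 67.7% of genes fell within 0.15 of a whole number, against 30% by chance for a fixed step. The step was searched for, which raises the share reached by chance, and that share was not measured. Fragment numbers are thus approximate. On simulated data for this comparison, with 16021 genes, 100% of 200 genes made 4-fold different were recovered and 0.214% of unchanged genes were called. The changed genes were drawn at a mean of 5 FPKM or more, and the noise was set by hand. The simulation thus checks the calculation and gives no error rate for these libraries. Depths simulated on 223 genes were recovered within 1%. Scripts ran in Python 3.11.15 with pandas 2.3.3 and numpy 2.4.6, intervals came from scipy 1.17.1, and plots from matplotlib 3.10.9. Some planned items are not reported here.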

Additional observations from a re-analysis of the deposited data

How the results depend on the processing

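All 5 hormone genes stayed past 2-fold upwards under each of 7 alternatives: pseudocounts of 5 and 0.1, a mean filter of 5 FPKM or none, rescaling to the same total FPKM, and subtracting the median or trimmed mean ratio. Of 189 values recomputed for 27 results, 178 stayed within the spread used here, or within 1.5 times for counts, 11 moved and 0 reversed. A change of filter cannot move the ratio of a single gene, and several list counts were 0 under every setting. Part of the 178 was thus fixed in advance. A single gene's spread was taken from genes of like expression (robust SD), a list's from its own members. With a pseudocount of 0.1 the log2 ratios were 7.08 for FGF21 and 5.75 for GDF15, and 743 genes passed 2-fold upwards and 390 downwards. With a pseudocount of 5 the log2 ratios were 3.59 for FGF21, 3.41 for GDF15, 2.62 for INHBE and 1.82 for ADM2, and 194 genes passed 2-fold upwards and 102 downwards. The main counts were 478 and 258, and at the same total FPKM they were 374 and 374. A pseudocount by its construction weighs most on genes with low values. With no filter, INHBC added 1 gene past 2-fold upwards to the TGF-beta family ligands. Without BMP1, an alternative chosen after seeing the data, the median of the TGF-beta family ligands was -0.10. STC2 ranged from 1.28 to 1.55 over all settings. No paired analysis was possible because each condition has 1 library, and leaving out a library leaves no comparison. Depth limits FGF21 most, with about 4 to 6 fragments behind its control value. The planned comparison of protein sequences was not run.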
